A study of Mus musculus with 8 samples.

Results

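The blood-retina barrier genes examined here were 31 genes of retinal and brain vessel transport, junctions and vesicles, measured by 52 probe sets. The members were a named list, and every probe set whose annotation gave exactly 1 gene symbol from that list was kept, so 52 of 34945 probe sets and 31 of 18193 genes were members. They fell into 13 solute carriers, 4 ABC pumps, 7 junction genes, 3 vesicle genes, 2 transcription factors and 2 further barrier markers (Spock2 and Itm2a). The signal was measured with Affymetrix arrays in whole retina of mouse pups at postnatal day 8, of mixed background, mainly C57BL/6 and 129. The 4 Control samples were Six3-Cre retinas, and the 4 Z/Edn2 samples were retinas with both Z/Edn2 and Six3-Cre, so both groups carried the Cre transgene. Z/Edn2 is a Cre-dependent transgene for Edn2, the gene of the secreted peptide endothelin 2, and Six3-Cre acts in the neural retina and not in its vessels. Z/Edn2 carriers were identified by LacZ activity in clipped tail tissue, and every array holds RNA from the pooled retinas of 2 to 3 animals. The labels call the samples biological replicates and number them 1 to 4 in each group.

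Vessels of the retina and brain seal the spaces between endothelial cells with tight junctions, suppress vesicle transport across the cell, and carry nutrients and drugs through dedicated carriers and pumps. In the retina this state is set up as the vessels grow in after birth, and it depends on the ligand Norrin, which acts through the receptor Frizzled4 and its coreceptors on endothelial cells and stabilises beta-catenin. Loss of this signal is known to lower tight junction proteins such as claudin 5 and to raise Plvap, a protein of fenestrae and open vesicles. Several of the carriers are also made by retinal neurons and glia, so that in whole retina only part of their signal comes from vessels.

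The promoter regions of the 3 members that fell, Slco1c1, Slc38a5 and Mfsd2a, are shown because these genes carry the main result, with that of Cldn5, whose log2 fold change was the largest among members that did not pass. Each runs 5′ to 3′ on the gene's strand from 250 bases before to 50 bases after the annotated start, from RefSeq in the build GRCm38.p6. Capitals mark matches on either strand to CTTTGA (bound by TCF and LEF factors), AGGAAG (ETS), ACAAT (SOX), TGTTTAC (FOX) or ACGTG, the core of the hypoxia response element, which also lies within the E-box letters CACGTG.
Slco1c1 (chr6:141524104-141524403, plus strand): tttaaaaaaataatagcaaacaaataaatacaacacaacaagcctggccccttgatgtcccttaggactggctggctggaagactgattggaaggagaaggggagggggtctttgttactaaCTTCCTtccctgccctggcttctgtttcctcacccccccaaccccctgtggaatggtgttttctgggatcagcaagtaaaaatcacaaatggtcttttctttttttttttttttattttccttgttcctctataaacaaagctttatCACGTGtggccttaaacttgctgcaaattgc
Slc38a5 (chrX:8271131-8271430, plus strand): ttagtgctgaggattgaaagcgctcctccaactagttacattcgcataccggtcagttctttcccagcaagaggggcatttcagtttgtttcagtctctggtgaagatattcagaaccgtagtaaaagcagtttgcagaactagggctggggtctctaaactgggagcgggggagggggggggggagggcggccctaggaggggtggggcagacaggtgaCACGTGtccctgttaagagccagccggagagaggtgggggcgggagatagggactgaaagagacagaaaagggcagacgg
Mfsd2a (chr4:122961139-122961438, minus strand): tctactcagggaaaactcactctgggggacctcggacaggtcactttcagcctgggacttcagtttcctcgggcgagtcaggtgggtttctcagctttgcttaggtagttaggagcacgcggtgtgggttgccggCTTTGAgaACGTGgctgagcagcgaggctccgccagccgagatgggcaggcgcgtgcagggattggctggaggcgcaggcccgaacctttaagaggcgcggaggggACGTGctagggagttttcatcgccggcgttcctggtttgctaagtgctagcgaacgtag
Cldn5 (chr16:18776597-18776896, plus strand): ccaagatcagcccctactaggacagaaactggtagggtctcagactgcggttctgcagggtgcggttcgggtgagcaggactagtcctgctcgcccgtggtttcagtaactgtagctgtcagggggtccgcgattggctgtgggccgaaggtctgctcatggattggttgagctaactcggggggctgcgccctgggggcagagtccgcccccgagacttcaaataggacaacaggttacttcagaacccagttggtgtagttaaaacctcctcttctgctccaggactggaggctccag
ACGTG was present in the windows of Slco1c1, Slc38a5 and Mfsd2a and not in that of Cldn5. In Slco1c1 and Slc38a5 the match was the palindrome CACGTG, which counts on both strands, and Mfsd2a had 2 separate matches. ACGTG stood in 19.6% of all 32851 RefSeq promoter windows of this length, and in 28.6% of the 35 windows of the 24 members with an entry. CTTTGA stood in the Mfsd2a window, in 20% of member windows and in 16% of all windows, and AGGAAG in the Slco1c1 window, in 40% and in 35.4%. ACAAT and TGTTTAC were in none of the 4 windows shown, and in 31% and 3.65% of all windows against 11.4% and 2.86% of member windows. A match is a string of letters and not a measured site.

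The arrays were alike, with Pearson correlations between 0.981 and 0.996 across probe sets. Z/Edn2 3 stood apart in its median (6.60 against 6.48 to 6.52 log2 signal elsewhere) and in the bioD spike-in at the 5′ end (9.30 against 11.32 to 11.61). Control 1 and Z/Edn2 1 had a smaller difference between the 3′ and 5′ actin signals (0.65 and 0.56 log2) than the other arrays (1.06 to 1.42). The probe set of Edn2 read 4.04, 4.12, 3.87 and 3.88 in Control 1 to 4 and 4.12, 4.25, 4.28 and 4.00 in Z/Edn2 1 to 4 (log2 signal). The groups overlapped, with a log2 fold change of 0.18 ± 0.0975 (SE; limma adjusted p = 1.00). Whether this probe set covers the transgene's transcript is not stated, so the genotype labels went unchecked by it. Markers of retina were present as labelled: the photoreceptor factors Nrl and Crx read 13.40 ± 0.0433 and 12.62 ± 0.0285 in Control (log2 signal, SD, n = 4 each). The endothelial genes Cdh5 and Pecam1 read 5.73 ± 0.278 and 5.31 ± 0.147 in Control. Both lay below the median of mean signal over all probe sets (6.51), and their detection was not tested.

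In Z/Edn2 retina 3 solute carriers fell and no member rose. Slco1c1, the thyroid hormone carrier of brain and retinal vessels, was 5.65-fold lower, Slc38a5, a glutamine carrier, 3.28-fold lower, and Mfsd2a, the lipid carrier that restrains vesicle transport, 1.88-fold lower. Of the 52 member probe sets 3 were lower and 0 higher by limma with Benjamini-Hochberg adjustment over all 34945 probe sets (threshold 0.05), and 49 did not pass. Over all probe sets 0.0258% were called lower and 0.0887% higher. An unadjusted limma p under 0.05 was reached by 12 member probe sets with lower and 1 with higher signal, against 1.2% lower and 2.84% higher over all. In 8 member probe sets, of 8 genes, all 4 Z/Edn2 arrays lay below all 4 Control arrays, where 0.813% of all probe sets did so, and in 0 they lay above, where 2.32% did. In 15 member probe sets each Z/Edn2 array lay below the same-numbered Control array, against 6.88% of all probe sets, and in 3 each lay above it, against 11%. Log2 fold changes below 0 were found for 38 member probe sets (73.1%) and 43.7% of all probe sets. The median was −0.11 for the members and 0.018 for all probe sets. The members were listed with earlier results of these arrays known, and 17 of the genes have more than 1 probe set, so these counts describe the list. With the replicate number as a block 4 member probe sets were lower and 0 higher, and over all probe sets 0.0515% were lower and 0.217% higher.

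**Figure D1:**
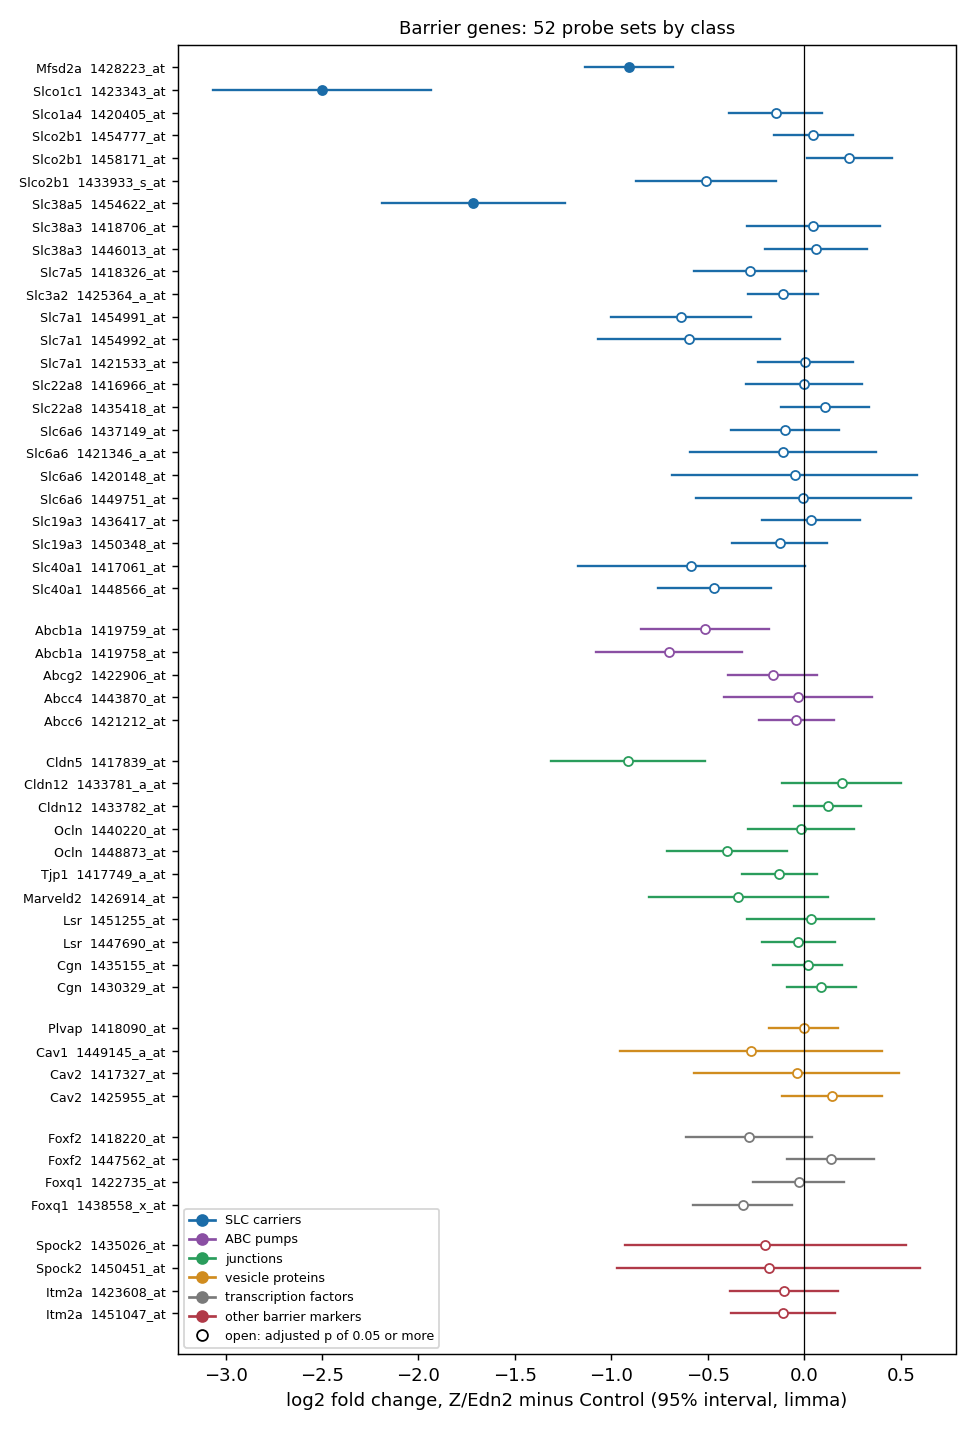
Log2 fold change (Z/Edn2 minus Control, x axis) of each of the 52 member probe sets (y axis), with limma's 95% interval, coloured by class. Filled points passed the adjusted threshold of 0.05 and are Slco1c1 (−2.50), Slc38a5 (−1.71) and Mfsd2a (−0.91), all solute carriers, while the intervals of most others include 0.

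Among the solute carriers, 3 of 24 probe sets were called lower and 0 higher, with 7 lower and 1 higher at an unadjusted limma p under 0.05, and the class median was −0.11. Slco1c1 moves thyroxine and some organic anions. It read 5.98, 7.17, 6.69 and 7.12 in Control 1 to 4 and 3.99, 4.59, 4.11 and 4.27 in Z/Edn2 1 to 4 (log2 signal, probe set 1423343_at). The lowest Control array, Control 1, still lay 1.39 above the highest Z/Edn2 array, so the groups were widely separated. All 4 Z/Edn2 values lay below 4.86, the 25th percentile of mean signal over all probe sets. Signal over background limits what can be seen there, and with it how exactly the fold is known. The log2 fold change was −2.50 ± 0.252 (SE; limma adjusted p = 0.00820), which is a fold of 5.65 with a 95% interval from 3.82 to 8.36. The call was lost without Z/Edn2 4 (limma adjusted p = 0.0519) and was kept in the other 7 omissions of 1 array. In whole retina, fewer vessel cells and less RNA in each of them cannot be told apart, for this gene or for those that follow.

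Slc38a5, a sodium-coupled carrier of glutamine and other neutral amino acids, read 5.91, 6.34, 6.10 and 5.75 in Control and 4.35, 4.82, 4.32 and 3.75 in Z/Edn2 (log2 signal, probe set 1454622_at). The groups did not overlap, and within each group replicate 2 was the highest and replicate 4 the lowest. As for Slco1c1, all Z/Edn2 values of Slc38a5 lay below the 25th percentile of mean signal (4.86), where background limits the fold. The log2 fold change was −1.71 ± 0.212 (SE; limma adjusted p = 0.0233). Of the 8 omissions of 1 array 6 ended the call, all but those of Z/Edn2 1 and Z/Edn2 2. The limma adjusted p then lay between 0.0508 (without Z/Edn2 4) and 0.113 (without Control 3), while the log2 fold change stayed between −1.88 and −1.53 in all 8. Mfsd2a, which carries lysophospholipids with docosahexaenoic acid across barrier endothelium, read 6.14, 6.45, 6.32 and 6.28 in Control and 5.39, 5.21, 5.56 and 5.39 in Z/Edn2 (log2 signal, probe set 1428223_at). Its arrays were tightly grouped on either side of a gap of 0.57. The log2 fold change was −0.91 ± 0.102 (SE; limma adjusted p = 0.0147), and 4 of the 8 omissions ended the call, those of Control 2, Control 3, Control 4 and Z/Edn2 4 (limma adjusted p = 0.0730, 0.0867, 0.0809 and 0.0742).

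**Figure D2:**
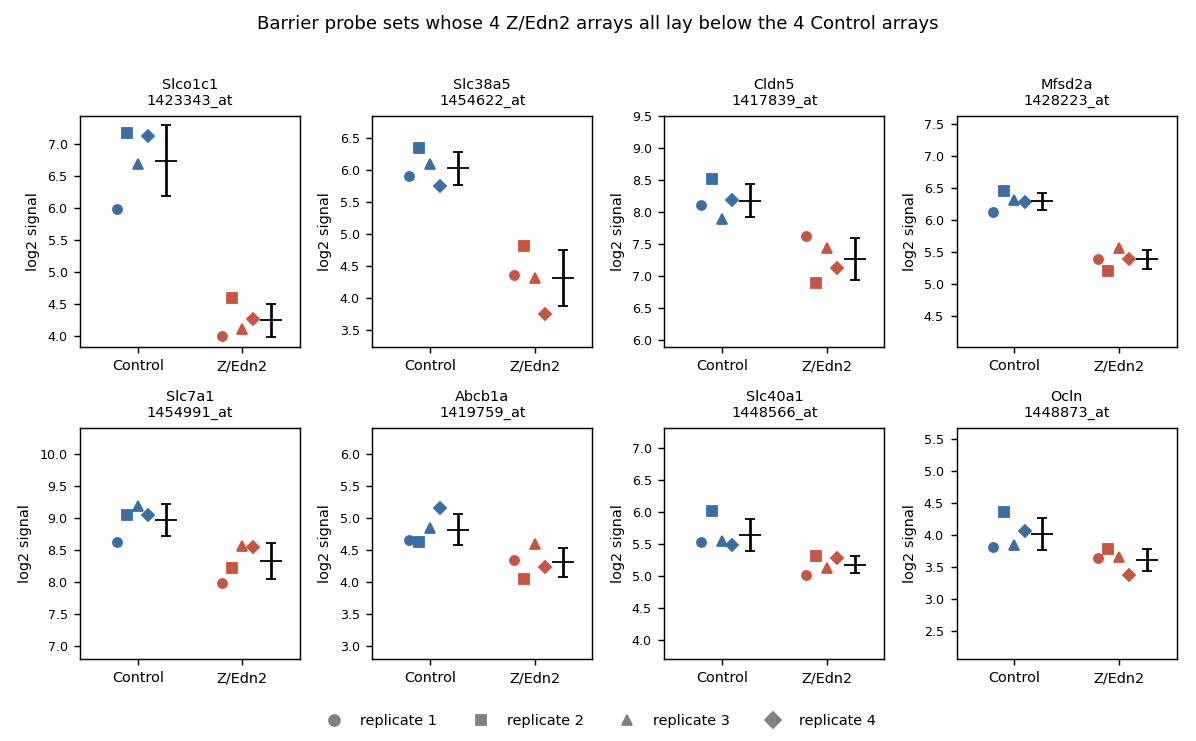
Log2 signal (y axis, the same span in every panel) of the 8 member probe sets whose Z/Edn2 arrays all lay below the Control arrays. Each symbol is an array, with the replicate number given by its shape, and the bar is the mean ± SD of 4 arrays. Slco1c1 and Slc38a5 show wide gaps, and for Slc7a1, Abcb1a, Slc40a1 and Ocln the groups lie close to each other.

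The remaining amino acid carriers did not pass. Slc7a1, the carrier of arginine and lysine, came closest, at 8.62, 9.04, 9.19 and 9.04 in Control and 7.99, 8.22, 8.57 and 8.55 in Z/Edn2 (log2 signal, probe set 1454991_at). No Z/Edn2 array reached the lowest Control array, and the log2 fold change was −0.64 ± 0.161 (SE; limma adjusted p = 0.594). With the replicate block it was called lower (limma adjusted p = 0.0317), the only member call the block added. A second probe set, 1454992_at, had a log2 fold change of −0.60, with a lower signal in all 4 same-numbered pairs. The third, 1421533_at, was at 0.0046, with a mean over the 8 arrays below the 25th percentile of all probe sets. Slc7a5, the light chain of the large neutral amino acid exchanger, had a log2 fold change of −0.28 (95% interval −0.57 to 0.0079) and was lower in all 4 same-numbered pairs. Its heavy chain partner Slc3a2 was at −0.11 (−0.29 to 0.069), with Control arrays between 10.03 and 10.28 and Z/Edn2 arrays between 10.01 and 10.08. Slc38a3, a relative of Slc38a5 that carries glutamine and histidine, had 2 probe sets at 0.047 (−0.30 to 0.39) and 0.061 (−0.20 to 0.33). For whole retina signal these intervals exclude a fall of the size found for Slc38a5. The difference between the genes was not itself tested, and the vessel part of the signal was not measured. The taurine carrier Slc6a6 had 4 probe sets between −0.11 and −0.0059, with intervals reaching from −0.68 to 0.58.

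The other organic anion carriers did not pass. Slco1a4, a carrier of bile acids, steroid conjugates and other organic anions in brain vessels, is separated from Slco1c1 on the same chromosome by 2 listed genes. It read 5.84, 6.14, 5.91 and 5.70 in Control and 5.87, 5.70, 5.65 and 5.78 in Z/Edn2, so the groups overlapped. Its log2 fold change of −0.15 had a 95% interval from −0.39 to 0.090, apart from the interval of Slco1c1 (−3.06 to −1.93), and the difference between the genes was not itself tested. The 3 probe sets of Slco2b1, another member of this family, disagreed, at 0.047 (1454777_at), 0.23 (1458171_at) and −0.51 (1433933_s_at). The first of these has the highest signal of the gene's probe sets. The second was the only member probe set with a higher signal at an unadjusted limma p under 0.05, and the last, of a type that can detect several transcripts, was among those with a lower one. Slc22a8, a carrier of organic anions at the barrier, had log2 fold changes of −0.0011 and 0.11, and Slc19a3, a thiamine carrier, of 0.033 and −0.13. Of these 4 probe sets 3 lay below the 25th percentile of mean signal.

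Slc40a1, ferroportin, exports iron from cells and occurs in endothelium, glia and macrophages. Its probe set 1448566_at read 5.54, 6.01, 5.56 and 5.48 in Control and 5.01, 5.31, 5.12 and 5.28 in Z/Edn2. The groups did not overlap but lay only 0.17 apart, with a log2 fold change of −0.47 ± 0.131 (SE; limma adjusted p = 0.781). The brighter probe set, 1417061_at, was at −0.58 ± 0.261, also lower in all 4 same-numbered pairs, with overlap between the groups. Neither passed.

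Of the ABC pumps, which return drugs and metabolites to the blood, 0 of 5 probe sets passed by limma in either direction, and 2 were lower at an unadjusted p under 0.05, both of Abcb1a. Abcb1a, P-glycoprotein, read 4.65, 4.62, 4.83 and 5.15 in Control and 4.34, 4.04, 4.59 and 4.24 in Z/Edn2 with probe set 1419759_at. The groups were separated by a gap of only 0.032. With probe set 1419758_at it read 3.34, 3.78, 3.63 and 3.88 in Control and 2.83, 2.83, 3.42 and 2.75 in Z/Edn2, and Z/Edn2 3 lay above Control 1. The log2 fold changes were −0.51 ± 0.148 and −0.70 ± 0.169 (SE; limma adjusted p = 0.842 and 0.533), and both probe sets lay below the 25th percentile of mean signal. Without the 3 arrays that stood apart (Control 1, Z/Edn2 1 and Z/Edn2 3) the latter was called, at −0.98 (limma adjusted p = 0.0266). Abcg2, the breast cancer resistance protein, read 8.02, 8.09, 8.16 and 8.29 in Control and 7.78, 8.01, 8.17 and 7.94 in Z/Edn2. Its log2 fold change of −0.16 had a 95% interval from −0.40 to 0.068, whose lower end is a 1.32-fold fall. Abcc4 and Abcc6, exporters of the multidrug resistance protein family, were at −0.032 (−0.41 to 0.35) and −0.040 (−0.23 to 0.15).

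The junction genes were mixed, with 0 of 11 probe sets called by limma, 2 lower and 0 higher at an unadjusted p under 0.05, 6 log2 fold changes below 0 and 5 above, and a class median of −0.016. Cldn5, the main claudin of barrier endothelium, read 8.11, 8.51, 7.89 and 8.19 in Control and 7.62, 6.89, 7.43 and 7.12 in Z/Edn2 (log2 signal, probe set 1417839_at). All 4 Z/Edn2 arrays lay below all Control arrays, and Z/Edn2 2 was the lowest. The log2 fold change was −0.91 ± 0.178 (SE), of nearly the same size as that of Mfsd2a, but with the wider spread it missed the threshold (limma adjusted p = 0.215). Over 23 alternatives its log2 fold change ran from −1.19 to −0.68 and its adjusted p from 0.0654 to 1.00. Ocln, occludin, had a dim probe set without overlap (1448873_at, log2 fold change −0.40 ± 0.139) and another at −0.016 (1440220_at, 95% interval −0.29 to 0.26).

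Cldn12, a claudin found in many tissues, was the junction gene with the largest positive difference. It read 9.13, 9.61, 9.54 and 9.50 in Control and 9.35, 9.83, 9.65 and 9.74 in Z/Edn2 with probe set 1433781_a_at. Each Z/Edn2 array lay above its same-numbered Control array, by 0.10 to 0.23, though the groups overlapped. Its log2 fold change was 0.19 (−0.11 to 0.50), and its other probe set, 1433782_at, was at 0.12 (−0.055 to 0.30), also higher in all 4 pairs. With the replicate block neither passed (limma adjusted p = 0.537 and 0.659). The scaffold protein gene Tjp1 (ZO-1) was at −0.13 (−0.32 to 0.065). The genes of the tricellular junctions, where 3 cells meet, were Marveld2 (tricellulin) at −0.34 (−0.81 to 0.12) and Lsr at −0.032 and 0.034. Cgn, cingulin, which links the junction to the cytoskeleton, was at 0.019 (−0.16 to 0.20) and 0.089 (−0.091 to 0.27).

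The vesicle genes showed 0 calls by limma in 4 probe sets, with 0 at an unadjusted p under 0.05. Plvap, which forms the diaphragms of fenestrae and caveolae, read 6.15, 6.18, 6.16 and 6.16 in Control and 6.18, 6.30, 6.05 and 6.11 in Z/Edn2. Its log2 fold change was −0.0024, with an interval from −0.18 to 0.18, so that a rise of whole retina signal beyond 1.13-fold lay outside the interval. The probe set's mean over the 8 arrays lay below the median of all probe sets, and the part of its signal from vessels was not measured. For the caveolins, the coat proteins of caveolae, Cav1 and the brighter Cav2 probe set differed more between replicate numbers than between groups. Cav1 read 8.05, 9.42, 8.88 and 8.30 in Control and 8.03, 8.97, 8.40 and 8.15 in Z/Edn2, and Cav2, the adjacent gene, 6.91, 7.95, 7.55 and 7.16 in Control and 7.03, 7.81, 7.38 and 7.20 in Z/Edn2 (probe set 1417327_at). In each group, for Cav1 and this Cav2 probe set, replicate 2 was the highest, followed by 3, 4 and 1. The dimmer Cav2 probe set, 1425955_at, had another order, at 5.81, 5.36, 5.69 and 5.49 in Control and 5.74, 5.82, 5.81 and 5.55 in Z/Edn2. The log2 fold change of Cav1 was −0.28 (95% interval −0.95 to 0.40, lower in all 4 same-numbered pairs) and those of the 2 Cav2 probe sets were −0.040 and 0.14. Over all probe sets 1.19% had the order 2, 3, 4 and 1 in both groups. Of the 52 member probe sets 4 (7.69%) had it, of Cav1, Cav2, Slc38a3 (1446013_at) and Slc40a1 (1417061_at), the last with Z/Edn2 3 and 4 tied. The brighter probe set of Slc38a3, 1418706_at, and the dimmer one of Slc40a1, 1448566_at, did not. Tspan12 of the Norrin and Wnt pathway, Aqp4 of the Mueller glia list and Csf1r of the microglia list also had this order. Of the 8 rod and cone genes 2 had it, Gnat1 (9.59, 12.20, 10.82 and 9.71 in Control and 9.17, 11.53, 10.54 and 9.76 in Z/Edn2) and Gnat2. Of the 9 pigment epithelium genes 2 had it, Rpe65 (6.08, 7.23, 6.81 and 6.19 in Control and 5.86, 7.02, 6.95 and 6.03 in Z/Edn2) and Mitf. The other genes of both lists did not, among them Nrl and Tyrp1, which were highest in replicate 1 in Control. The part of these levels in the caveolin signal was not tested.

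**Figure D3:**
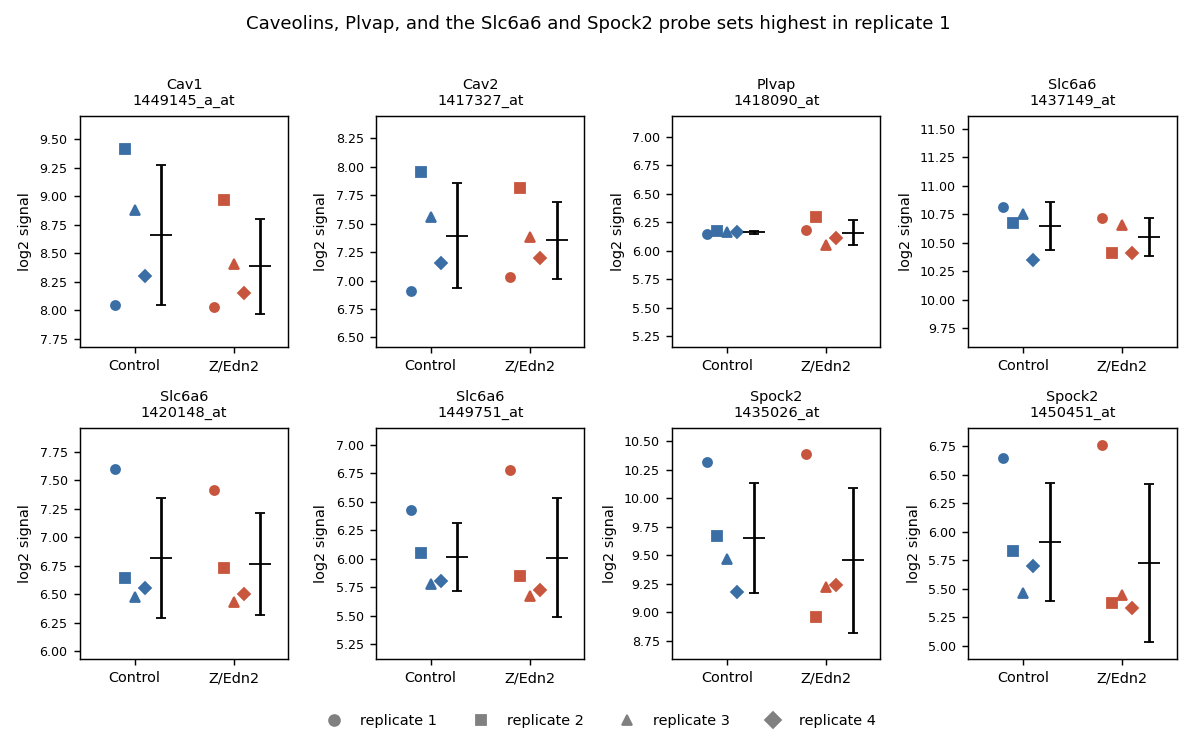
Log2 signal (y axis, the same span in every panel) of Cav1, Cav2, Plvap and those probe sets of Slc6a6 and Spock2 that were highest in replicate 1 of both groups, in the 4 Control and 4 Z/Edn2 arrays. The replicate number is given by the symbol and the mean ± SD by the bar. Cav1 and the Cav2 probe set shown keep the same order of replicate numbers in both groups, and Plvap is nearly level.

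Of the 4 transcription factor probe sets and the 4 of the remaining markers 0 passed by limma, with 1 and 0 lower and 0 higher at an unadjusted p under 0.05. Foxf2, a forkhead factor of brain pericytes and endothelium, had 2 probe sets, at −0.29 (−0.61 to 0.038) and 0.14 (−0.092 to 0.36). Foxq1, a forkhead factor enriched in brain endothelium, was at −0.030 with its brighter probe set and at −0.32 ± 0.115 with a dim one (1438558_x_at), of a type that can also bind other transcripts. Itm2a, a membrane protein of brain vessels, was at −0.11 with both of its probe sets, with intervals from −0.39 to 0.17 and from −0.38 to 0.16. Spock2, a secreted proteoglycan also made by neurons, read 10.31, 9.67, 9.47 and 9.18 in Control and 10.39, 8.96, 9.23 and 9.24 in Z/Edn2 (probe set 1435026_at). Replicate 1 stood above the others in both groups, and the log2 fold change was −0.20 (−0.93 to 0.53). Slc6a6 did the same with probe set 1420148_at, at 7.59 in Control 1 and 7.41 in Z/Edn2 1 against 6.43 to 6.73 elsewhere. These are the 2 arrays with the smaller actin difference given above, and its part in these levels was not tested.

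The fall of the called carriers was set beside general endothelial genes in the same arrays. Of 24 such genes 2 fell by limma and 0 rose, with 19 log2 fold changes below 0 and 5 above and a median of −0.16. An unadjusted limma p under 0.05 was reached by 6 of these genes with lower and 0 with higher signal. Tek, the angiopoietin receptor, fell by 1.54 ± 0.141 on the log2 scale (SE; limma adjusted p = 0.00418), and Ptprb, the endothelial receptor phosphatase, fell by 0.78 ± 0.111 (limma adjusted p = 0.0463). Pecam1 read 5.38, 5.09, 5.38 and 5.39 in Control and 5.81, 4.75, 5.60 and 5.33 in Z/Edn2, and Cdh5 5.31, 5.87, 5.90 and 5.82 against 5.77, 4.52, 6.12 and 5.56. In both genes Z/Edn2 2 was the lowest array and the groups overlapped. Ramp2 (−0.41), Sox18 (−0.51), Tie1 (−0.50) and Clec14a (−0.30) did not pass the adjusted threshold. For Tek, Ptprb, Ramp2 and Sox18 all 4 Z/Edn2 arrays lay below all 4 Control arrays, and for no gene of the list did they lie above. The mean of the 24 genes ranged from 6.039 to 6.147 in Control and from 5.579 to 6.036 in Z/Edn2, a difference of −0.23 (SD 0.048 and 0.20, n = 4 each). Z/Edn2 2 was the lowest array, and without it the difference was −0.14.

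When each array's endothelial mean was subtracted from the members, 4 probe sets still had no overlap with Z/Edn2 lower, those of Slco1c1, Slc38a5, Mfsd2a and Cldn5. Slco1c1 then lay between −0.060 and 1.07 in Control and between −1.96 and −0.99 in Z/Edn2, a difference of −2.27. The differences were −1.48 for Slc38a5, −0.68 for Mfsd2a and −0.68 for Cldn5. The gaps of Slc7a1, Slc40a1, Abcb1a and Ocln closed, with differences of −0.41, −0.23, −0.28 and −0.17 for the same probe sets. The endothelial mean differed by −0.23 between the groups, so the subtraction moved every member difference up by that same amount. This shift is arithmetic and also applies to members whose signal comes from other cells. In 5 probe sets of Slco2b1, Cldn12, Lsr and Cgn all Z/Edn2 arrays then lay above the Control arrays, and the number of member differences below 0 went from 38 to 17 of 52. Without Z/Edn2 2 it was 22 after subtraction. When each array was left out in turn, Slco1c1, Slc38a5, Mfsd2a and Cldn5 had no overlap in any of the 8 omissions. The number of probe sets without overlap was then 4 to 7 lower (the most without Control 1) and 5 to 9 higher (8 without Control 1 and 9 without Z/Edn2 1). Fewer arrays overlap less often by construction, and these are descriptions without a test. The share of all probe sets without overlap after the same subtraction is not given here, so these counts have no background. The subtracted mean rests on log2 signals of different probe sets, and the list includes Tek and Ptprb, which fell themselves. Its probe sets ranged from dim to bright. Control means were 4.47 for Tal1, 4.81 for Sox7 and 4.84 for Vwf, below the 25th percentile of mean signal (4.86), and 10.36 for Kdr. Dim probe sets limit what the mean can show of a change in endothelial signal.

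**Figure D4:**
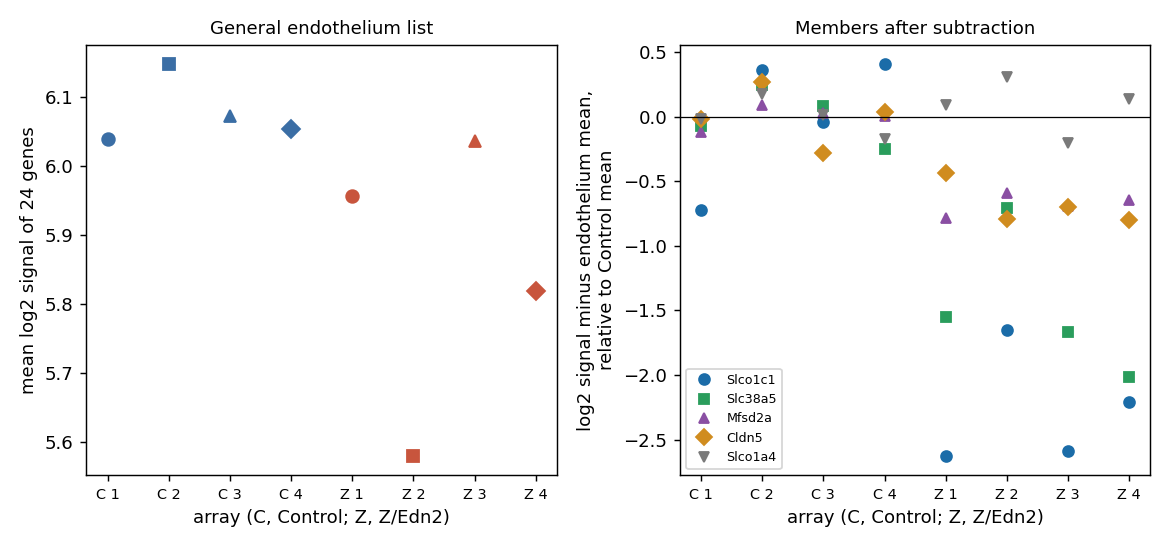
Left, the mean log2 signal of the 24 general endothelial genes (y axis) in each array (x axis), from 6.039 to 6.147 in Control and from 5.579 to 6.036 in Z/Edn2. Right, the log2 signal of 5 members minus that mean, relative to the Control mean, in each array. Slco1c1, Slc38a5, Mfsd2a and Cldn5 stay below every Control array in each Z/Edn2 array, and Slco1a4 does not.

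Other carriers and receptors of barrier vessels showed 1 call among 26 genes. Slc39a8, a carrier of zinc and manganese, fell from 4.83, 5.43, 5.29 and 4.96 in Control to 3.70, 3.76, 4.15 and 4.11 in Z/Edn2, a log2 fold change of −1.20 ± 0.160 (SE; limma adjusted p = 0.0339). The list's median was 0.0037, with 13 log2 fold changes on either side of 0. The glucose carrier Slc2a1, which is also induced in hypoxia, was at 0.33 ± 0.105 and the lactate carrier chaperone Bsg at 0.36 ± 0.183 (limma adjusted p = 0.991 and 1.00). For Slc2a1 all Z/Edn2 arrays lay above all Control arrays. At an unadjusted limma p under 0.05 this list had 1 gene lower, Slc39a8, and 1 higher, Slc2a1. Of 20 further junction genes and 12 further caveola and vesicle genes 0 passed by limma. Their medians were 0.045 and 0.023. In the second list Cavin2, a caveola coat protein, was the only gene with an unadjusted p under 0.05, at −0.26, and the first list had 0. Among 18 genes of the Norrin and Wnt pathway 0 passed by limma, and the unadjusted p was under 0.05 for Sox17, an endothelial transcription factor (−0.40 ± 0.118), and Apcdd1, a Wnt inhibitor induced by the pathway (−0.31 ± 0.0960; limma adjusted p = 0.912 and 0.978). For this list the median was 0.015, with 7 log2 fold changes below 0 and 11 above. The ligand Ndp itself was at 0.086, and Axin2, Lef1, Nkd1 and Notum of the same list were at 0.00032, 0.0035, 0.21 and 0.032.

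Beyond the barrier and general endothelial lists, calls were found in the tip cell and hypoxia response lists, and the lists of other cell types had none without the block. Of 12 tip cell genes 3 rose by limma and 0 fell, namely Adm (2.26), Apln (0.63) and Esm1 (1.39), and all 12 log2 fold changes were above 0. The list's mean log2 signal was 5.99 to 6.05 in Control and 6.35 to 6.84 in Z/Edn2. Of 13 hypoxia response genes 7 rose (Adm, Bnip3, Pfkfb3, Pdk1, Egln3, Ndufa4l2 and Vegfa), with list means from 8.32 to 8.43 and from 9.29 to 9.47, and Adm stands in both lists. The 6 astrocyte genes had a median of 0.47 and means from 6.92 to 7.38 and from 7.43 to 7.59, with 0 calls by limma and 0 lower and 4 higher at an unadjusted p under 0.05. The list of 8 retinal ganglion cell genes had all log2 fold changes below 0 with 0 calls (5 lower and 0 higher at an unadjusted p under 0.05), and means from 9.73 to 9.97 in Control and from 9.41 to 9.56 in Z/Edn2. With the replicate block P4ha1 of the hypoxia list, Igfbp5 of the astrocyte list and Sox9 of the Mueller glia list were called higher too (limma adjusted p = 0.0439, 0.0257 and 0.0460). The means of 6 lists overlapped between the groups and held 0 calls by limma without the block, and they are given with the called share and the counts at an unadjusted p under 0.05. They were pericytes and smooth muscle (6.15 to 6.42 in Control and 6.12 to 6.59 in Z/Edn2, 0 of 11, 0 lower and 1 higher), Mueller glia (9.46 to 9.82 and 9.43 to 9.59, 0 of 12, 1 lower and 2 higher), retinal pigment epithelium (7.22 to 7.56 and 7.05 to 7.53, 0 of 9, 0 lower and 0 higher), microglia (6.08 to 6.21 and 5.96 to 6.21, 0 of 9, 2 lower and 1 higher), rods and cones (11.05 to 11.74 and 11.08 to 11.52, 0 of 8, 0 lower and 0 higher) and erythroid cells (4.72 to 4.90 and 4.67 to 5.14, 0 of 4, 0 lower and 0 higher). The part of any of these in the barrier genes' differences was not tested.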

How the data were processed

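Total RNA from 8 retina samples was prepared for the arrays with a kit that adds biotin, per the labels' protocols. The log2 signal per probe set was deposited by the authors after RMA, per the submitters' processing notes, a method that corrects background, equalises quantiles and summarises probes; version and genome build are not given in the sources used here. A second deposited file, the authors' deposited table of the comparison, lists the log2 fold change by probe set beside a signed fold (a score, below 0 for lower expression) and a p-value without adjustment, whose test is not named. Those log2 fold changes equalled the group mean differences, Z/Edn2 minus Control, within 4.92e-08.

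Values were used as deposited. Of 45101 probe sets, 64 array controls, 932 with several symbols and 9160 without one were left out, and 34945 were tested with limma 3.58.1 in R 4.3.3 (two-sided, by lmFit and eBayes), adjusted over all of them (Benjamini-Hochberg, threshold 0.05), without a filter on dim probe sets. Platform annotation gave the symbols, and all 52 member probe sets matched RefSeq (GRCm38.p6) by Entrez identifier with the same symbol. SE and 95% intervals are limma's. Members and lists were chosen with earlier results of these data known. All 31 members were named, with full values for called members and up to 4 others a class by smallest p, and of each further list the called genes and up to 4 others by smallest p; genes outside that rule, such as Gnat1 and Rpe65, were chosen after their values were seen. Other lists use each gene's brightest probe set, and listed genes without a usable one were not analysed here. P-values measure the spread between these 8 pools, and the number of arrays limits the precision. The limma script was tested on simulated data.

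Both groups number replicates 1 to 4. After removal of group means, same-numbered arrays correlated at 0.80, 0.43, 0.18 and 0.31 across probe sets, all above the bound of 0.1, and the replicate number was therefore also fitted as a blocking factor. Control 3 correlated more with Z/Edn2 4 (0.41) and Z/Edn2 2 (0.19) than with Z/Edn2 3. Alternatives were that block, eBayes with trend and robust, array weights, all non-control probe sets, 1 or averaged probe sets per gene, filters on dim probe sets, median centring and omission of arrays or pairs.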

Additional observations from a re-analysis of the deposited data

Results flagged for a closer look

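In 7 of 104 groups of 4 arrays, 1 array lay far from the other 3 by Dixon's criterion at the 95% level, where chance alone gives about 1 in 20, or 5.2. Z/Edn2 1 was the far array in 4 of them. It read 6.78 for Slc6a6 (1449751_at) against 5.67 to 5.85 in the other Z/Edn2 arrays, 5.38 for Slc40a1 (1417061_at) against 6.37 to 6.55, 5.49 for Cgn (1430329_at) against 5.29 to 5.33, and 6.76 for Spock2 (1450451_at) against 5.33 to 5.44. Control 1 read 7.59 for Slc6a6 (1420148_at) against 6.48 to 6.64. Control 2 read 6.01 for Slc40a1 (1448566_at) against 5.48 to 5.56. Z/Edn2 3 read 3.42 for Abcb1a (1419758_at) against 2.75 to 2.83.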

How the results depend on the processing

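The 3 lower members (Slco1c1, Slc38a5 and Mfsd2a) remained called, with 0 higher, under trend and robust eBayes, array weights, all non-control probe sets, 1 or averaged probe sets a gene, the filter at the 25th percentile of mean signal, and median centring. With the replicate block 4 member probe sets were lower (Slc7a1 was added); the block changed no other member call and moved the counts over all probe sets from 9 to 18 lower and from 31 to 76 higher. Only probe sets above the median left 0 members called lower, because that filter removed all 3. The p-values of the authors' deposited table, adjusted after the data were seen, gave 0 lower members and, over all probe sets, 0 lower and 6 higher. Leaving out 1 array gave 0 to 3 lower members, with 0 without Z/Edn2 4, 1 (Slco1c1) without Control 2, Control 3 or Control 4, and 2 (Slco1c1 and Mfsd2a) without Control 1 or Z/Edn2 3; over all probe sets this gave 1 to 7 lower and 9 to 34 higher. Leaving out a same-numbered pair gave 2 without replicate 1 and 0 without replicate 2, 3 or 4, with 0 to 7 lower and 3 to 27 higher over all. Without Control 1, Z/Edn2 1 and Z/Edn2 3, chosen after the data were seen, 3 were called (Slco1c1, Mfsd2a and Abcb1a), and the limma adjusted p of Slc38a5 was 0.164. The counts over all probe sets for this omission are not given here. The log2 fold changes of Slco1c1, Slc38a5 and Mfsd2a stayed within −2.75 to −2.35, −1.88 to −1.53 and −1.05 to −0.80 over the alternatives in which their probe sets were kept. Array weights gave 49 higher over all, and the median filter 2 lower and 19 higher. The cause of these differences was not tested. Of the 52 member probe sets 14 lay below the 25th percentile of mean signal, where signal over background limits what can be seen.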

Other observations

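Slc38a5 is X-linked, and the arrays differed in Xist, the transcript that coats a silenced X. Xist read 6.57 in Z/Edn2 3 and 10.16 to 12.35 in the other arrays (log2 signal, probe set 1436936_s_at). Slc38a5 in Z/Edn2 3 was 4.32, within the 3.75 to 4.82 of the other Z/Edn2 arrays, and its log2 fold change without that array was −1.72. Slco1c1 had its lowest value of each group in replicate 1, as Cav1 and Cav2 (the brighter probe set) did.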
